A study of Mus musculus with 6 samples.

Results

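Doxorubicin poisons topoisomerase II, so the abundance of the enzyme, of the phosphodiesterases that clear its DNA adducts and of the pumps that export the drug can all bear on how much damage a cell meets. Of the 54532 genes in the deposited table, 8 of this kind were taken by their symbol: the topoisomerase II genes Top2a and Top2b, the adduct repair genes Tdp1 and Tdp2, and the drug exporter genes Abcb1a, Abcb1b, Abcc1 and Abcg2. All 8 had a mean of at least 1 FPKM (fragments per kilobase of transcript, scaled to sequencing depth) over the libraries and entered the test. Abcb1a did so only through its level in shLuc_dox. The cells were mouse embryonic fibroblasts expressing the adenoviral oncoprotein E1A and HRasV12, an activated Ras. A hairpin against Mettl3, the enzyme that writes N6-methyladenosine on mRNA, was set against a control hairpin (shMettl3_dox, n = 3, against shLuc_dox, n = 3). Both groups received 0.2 ug/ml doxorubicin for 6 hours, and no library without the drug was among those analysed here. A difference present before the drug thus cannot be told apart from a changed response to it. Columns of the authors' deposited table carry the name shMettl3-2, and the labels do not say what its number stands for, nor do they name a clone. They also do not tell whether replicates were grown apart, so the p-values rest on a spread between libraries that may be technical only.

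Topoisomerase II cuts both strands of a DNA duplex, passes another duplex through the gap and reseals it. Doxorubicin holds the enzyme on the cut ends, and the protein stays bound to DNA through a tyrosine. Tdp2 releases such tyrosine links from topoisomerase II, whereas Tdp1 acts mainly on those of topoisomerase I. Doxorubicin is a substrate of P-glycoprotein, an ATP-driven pump of the plasma membrane, which mice encode in the neighbouring genes Abcb1a and Abcb1b and humans in a single gene. Abcc1 (multidrug resistance-associated protein) and Abcg2 (breast cancer resistance protein) are further ATP-driven exporters of drugs.

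Recovered depth was 17652950 to 25464036 reads in the shMettl3_dox libraries and 17001642 to 20132539 in the shLuc_dox libraries. Mettl3 was at 1.29, 1.53 and 1.65 FPKM in shMettl3_dox and at 2.47, 3.14 and 2.59 FPKM in shLuc_dox, with no overlap (limma adjusted p = 0.00861). The library shMettl3_dox replicate 3 stood apart from its group, with a chi-square of recovered reads per degree of freedom of 13 to 14.9 against the others, where all other pairs within a group had 3.53 to 4.87. Of the fibroblast markers, Vim averaged 703 FPKM in shMettl3_dox and 818 FPKM in shLuc_dox. Pdgfrb averaged 4.93 FPKM in shMettl3_dox and 4.57 FPKM in shLuc_dox, and Pdgfra 1.71 FPKM in shMettl3_dox and 2.69 FPKM in shLuc_dox. Thy1, Col1a1, Col1a2, Col3a1 and S100a4 averaged under 1 FPKM in both groups, so the labelled cell type was borne out by some of its markers and not by others. The 8 fibroblast markers summed to 687 to 751 FPKM in shMettl3_dox and 806 to 856 FPKM in shLuc_dox, nearly all of it Vim. Of the 3 tested, 2 fell, where 13.5% of all genes tested were lower. This and the marker lists below hold too few tested genes to read a share from. The 6 epithelial markers summed to 36.4 to 42.3 FPKM in shMettl3_dox and 58.4 to 61.6 FPKM in shLuc_dox. Most of this was Krt18, at a mean of 29.1 FPKM in shMettl3_dox and 46.2 FPKM in shLuc_dox. All 3 tested (Krt18, Krt19 and Epcam) fell, while Cdh1, Krt8 and Cldn4 averaged at most 0.124 FPKM. The 6 macrophage markers summed to 15.5 to 16.5 FPKM in shMettl3_dox and 22.3 to 26.7 FPKM in shLuc_dox. Most of this was Cd68, at a mean of 10.1 FPKM in shMettl3_dox and 16.8 FPKM in shLuc_dox. Both tested (Cd68 and Cd14) fell, while the defining Ptprc, Adgre1 and Itgam were near 0. The 6 endothelial markers summed to 0.210 to 0.362 FPKM in shMettl3_dox and 0.364 to 0.386 FPKM in shLuc_dox, with Emcn listed at 0. The part of these markers in the results was not tested. RNA from fewer cells of a type and less RNA per cell cannot be told apart in bulk samples.

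Of the 8 genes, both P-glycoprotein genes fell, Tdp1 and Abcc1 rose, and Top2a, Top2b, Tdp2 and Abcg2 did not pass the test (limma on log2(FPKM + 1), adjusted over 12098 genes). Of all genes in the test, 28.1% passed, with 13.5% lower (1633) and 14.6% higher (1763); scaling to protein-coding genes gave 1927 lower and 1263 higher. Lower calls made up 25% of the 8 genes and higher calls another 25%, too few genes to read a share from. The calls for Abcb1a, Abcb1b and Tdp1 held under all 18 alternatives tried, and that of Abcc1 held under 7. The same 4 genes passed on recovered reads, by edgeR (31.1% of all genes called, 14.8% lower and 16.3% higher) and by DESeq2 (28.4% called, 13.9% lower and 14.4% higher). The median log2 change was 0.07 over the 8 genes and 0.01 over all genes tested. The groups did not overlap in 6 of the 8, where 45.1% of all genes tested showed no overlap. Without shMettl3_dox replicate 3, the log2 changes were -0.83 for Abcb1a, -0.52 for Abcb1b, 0.28 for Tdp1, 0.15 for Abcc1, 0.10 for Abcg2, -0.11 for Tdp2, 0.04 for Top2b and -0.02 for Top2a, and of these Abcc1 lost its call (limma adjusted p = 0.0686).

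**Figure D1:**
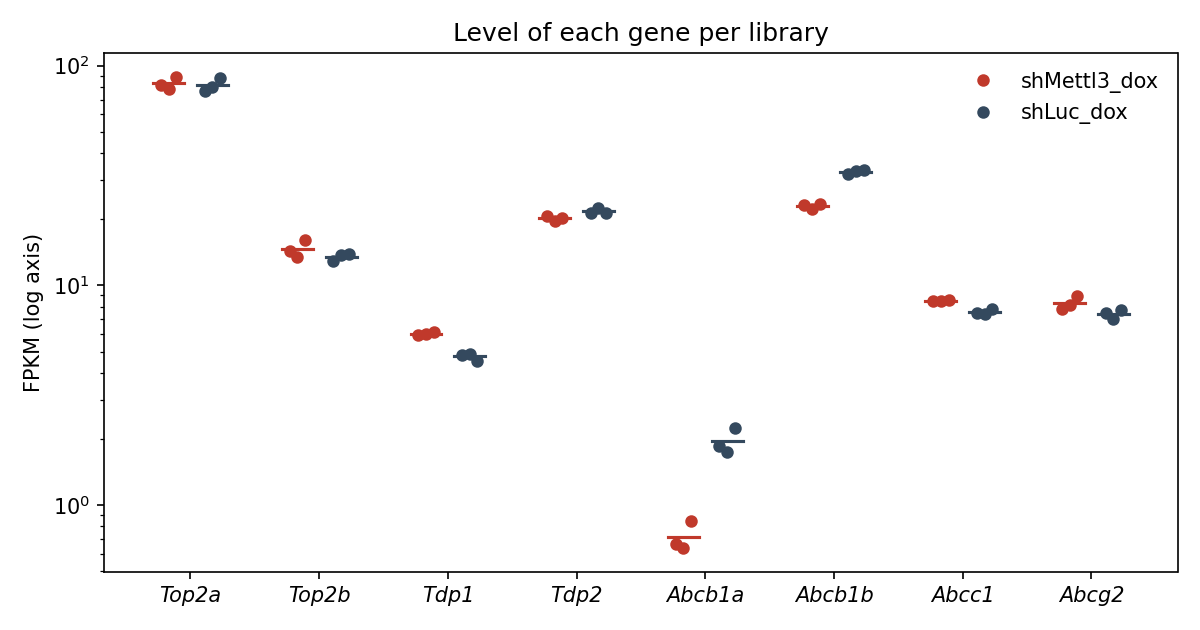
FPKM of each gene on a log axis, with 1 point per library and a bar at the mean of each group of 3; shMettl3_dox is left of shLuc_dox for each gene. The groups stand clearly apart for Abcb1a (0.718 against 1.95 FPKM) and Abcb1b (23.0 against 32.8 FPKM), and overlap for Top2a.

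Per length, Top2a was the most abundant of the 8 in every library, at a mean over all 6 libraries of 82.2 FPKM, followed by Abcb1b (27.9), Tdp2, Top2b (14.1), Abcc1 (8.03), Abcg2 (7.86), Tdp1 (5.39) and Abcb1a (1.33). Abcc1 and Abcg2, neighbours in this order, had overlapping ranges and stood in this order in 4 of 6 libraries. Abcb1b and Tdp2 also had overlapping ranges over all libraries, but Abcb1b was above Tdp2 in each of the 6. Every other pair of neighbours was apart in all libraries.

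The promoters of the genes whose calls held under every alternative are given with that of Top2a, the gene of the drug's main target in dividing cells, for comparison. Each is the 250 bases before the RefSeq start of the gene (GRCm38.p6), read in the direction of transcription: chr5:8566841-8567090 (plus strand) for Abcb1a, chr5:8797897-8798146 (plus) for Abcb1b, chr12:99884268-99884517 (plus) for Tdp1 and chr11:99024190-99024439 (minus) for Top2a. Capitals mark CCAAT or its reverse complement ATTGG, the cell cycle homology region letters TTTGAA or TTCAAA, and the GC box GGGCGG or CCGCCC, searched on both strands; no matches overlap in these windows.
Abcb1a: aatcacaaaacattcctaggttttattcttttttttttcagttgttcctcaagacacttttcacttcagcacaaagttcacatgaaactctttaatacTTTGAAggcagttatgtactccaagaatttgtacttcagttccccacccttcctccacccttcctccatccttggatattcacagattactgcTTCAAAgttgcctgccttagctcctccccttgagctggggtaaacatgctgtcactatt
Abcb1b: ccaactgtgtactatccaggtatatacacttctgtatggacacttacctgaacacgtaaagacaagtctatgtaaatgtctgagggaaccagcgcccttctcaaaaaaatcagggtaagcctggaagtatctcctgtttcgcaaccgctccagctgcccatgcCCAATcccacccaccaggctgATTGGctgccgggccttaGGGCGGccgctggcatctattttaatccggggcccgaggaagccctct
Tdp1: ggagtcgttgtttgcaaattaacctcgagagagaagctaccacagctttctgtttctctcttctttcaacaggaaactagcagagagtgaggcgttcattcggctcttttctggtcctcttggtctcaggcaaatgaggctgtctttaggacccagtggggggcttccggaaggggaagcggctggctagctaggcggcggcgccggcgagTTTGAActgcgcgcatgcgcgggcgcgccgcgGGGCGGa
Top2a: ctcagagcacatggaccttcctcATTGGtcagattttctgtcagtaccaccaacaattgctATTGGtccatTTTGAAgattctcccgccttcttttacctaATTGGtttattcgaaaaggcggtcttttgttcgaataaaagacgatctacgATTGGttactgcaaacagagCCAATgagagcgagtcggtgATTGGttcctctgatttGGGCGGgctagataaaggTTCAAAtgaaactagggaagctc
The neighbouring P-glycoprotein genes share none of these letters in their windows. Abcb1b holds CCAAT letters starting at -87 and -66 and a GC box at -48, whereas Abcb1a holds only TTTGAA and TTCAAA, starting at -152 and -59. The Abcb1a window belongs to a RefSeq start that lies 92986 bases upstream of the GENCODE M21 start of the gene, and which start these cells used was not tested. Top2a has 6 CCAAT matches, a number of 5 or more being found in 0.213% of 32851 promoter windows. At least 1 CCAAT match was found in 33.8% of all windows, TTTGAA or TTCAAA in 16% and a GC box in 32.7%. Windows were found for 6 of the 8 genes. Of their 8 windows, 7 held CCAAT or TTTGAA letters and 3 held CCAAT letters, those of Top2a, Top2b and Abcb1b. Only Abcg2 had more than 1 window. The share of all windows holding either kind was not counted, and 8 windows are too few to read a share from.

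Top2a and Top2b, the genes of the drug's direct target, showed no change past the threshold. Top2a encodes the isoform of dividing cells. Top2a (ENSMUSG00000020914, mm10 chromosome 11, 98992943 to 99024189, minus strand) was at 82.0, 78.0 and 89.1 FPKM in shMettl3_dox and at 76.9, 79.6 and 87.5 FPKM in shLuc_dox. The ranges of the groups overlapped over most of their width, and replicate 3 was the highest library of each. The log2 change was 0.03 with a 95% interval of -0.13 to 0.19 (limma adjusted p = 0.787), on 12302 to 18631 reads per library. Its sign turned under 3 alternatives, at -0.01 with protein-coding scaling, -0.02 without shMettl3_dox replicate 3 and -0.01 without shLuc_dox replicate 1. Top2b, the isoform present in dividing and resting cells alike (ENSMUSG00000017485, chromosome 14, 16365179 to 16435462, plus strand), was at 14.4, 13.4 and 16.1 FPKM in shMettl3_dox and at 12.9, 13.7 and 14.0 FPKM in shLuc_dox. Only the lowest shMettl3_dox library, replicate 2, lay within the range of shLuc_dox. The log2 change was 0.11 with an interval of -0.06 to 0.27 (limma adjusted p = 0.307).

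Top2a is transcribed with the genes of G2 and mitosis. Of 20 such genes tested, 13 rose and 7 did not pass, where 14.6% of all genes tested were higher, with a median log2 change of 0.27 beside 0.03 for Top2a. Foxm1, a transcription factor of mitotic genes, averaged 24.1 ± 0.261 FPKM in shMettl3_dox and 18.5 ± 0.347 FPKM in shLuc_dox (SD, n = 3 each; log2 change 0.36). Birc5 and Aurka, which encode a chromosomal passenger protein and a spindle kinase, rose by 0.42 and 0.36 on the log2 scale. Cenpe, a kinetochore motor gene, was the only one with a negative log2 change (-0.07, limma adjusted p = 0.690). Leaving out 1 library gave 9 to 13 such genes higher. The difference between Top2a and these genes was not tested.

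Of the adduct repair enzymes, Tdp1 rose and Tdp2 did not pass. Tdp1 (ENSMUSG00000021177, chromosome 12, 99884517 to 99955219, plus strand) was at 5.94, 6.03 and 6.15 FPKM in shMettl3_dox and at 4.83, 4.89 and 4.53 FPKM in shLuc_dox. Every shMettl3_dox library was above every shLuc_dox library, and the spread within groups was small. The mean was 27.1% higher, 0.29 on the log2 scale (SE 0.0531; limma adjusted p = 0.00804). Without any 1 library the change stayed between 0.26 and 0.31, with a limma adjusted p of 0.0183 to 0.0293.

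Tdp2, the enzyme that acts on topoisomerase II adducts (ENSMUSG00000035958, chromosome 13, 24831679 to 24842153, plus strand), was at 20.6, 19.7 and 20.4 FPKM in shMettl3_dox and at 21.4, 22.4 and 21.5 FPKM in shLuc_dox. The groups did not overlap, but the gap was narrow. The log2 change was -0.10 with a 95% interval of -0.20 to -0.00492 (limma unadjusted p = 0.0419, adjusted p = 0.110). It missed the threshold under all 18 alternatives, the nearest being protein-coding scaling at -0.14 (adjusted p = 0.0565).

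The ratio of Tdp1 to Tdp2 within a library, which does not depend on how libraries are scaled, was 0.288, 0.306 and 0.302 in shMettl3_dox and 0.225, 0.218 and 0.211 in shLuc_dox. It was 1.37-fold higher in shMettl3_dox, without overlap. The exact two-sided permutation test gave p = 0.1, the smallest that 3 against 3 libraries allow, also after adjustment over the 4 ratios tested. The ratio of Top2a to Top2b was 5.69, 5.81 and 5.54 in shMettl3_dox and 5.98, 5.82 and 6.27 in shLuc_dox (exact permutation p = 0.1). Its groups only just failed to overlap, and its mean differed by a factor of 0.944.

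A further list of 20 genes held other topoisomerases, such as Top1, Top3a and Top3b, and genes that process protein-DNA adducts and the breaks beneath them. Of these 20, 1 rose and 19 did not pass, where 14.6% of all genes tested were higher and 13.5% lower. The gene that rose was Nbn, a subunit of the nuclease complex that trims blocked ends, at 19.4 ± 0.638 FPKM in shMettl3_dox and 14.6 ± 0.784 FPKM in shLuc_dox (log2 change 0.39, limma adjusted p = 0.00269). Zfp451, which encodes a SUMO ligase that works with Tdp2, averaged 8.49 ± 0.358 FPKM in shMettl3_dox and 9.68 ± 0.423 FPKM in shLuc_dox (log2 change -0.17, limma adjusted p = 0.0520). Rnf4 had a log2 change of -0.07, and Xrcc4 and Xrcc5, genes of end joining, had 0.25 and 0.15, none past the threshold. In the authors' deposited table Zfp451 was listed as lower, with a log2 fold change of -0.18 and an adjusted p of 0.0145, and 1 gene of the list was lower under 9 of the 18 alternatives, edgeR and DESeq2 among them.

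**Figure D2:**
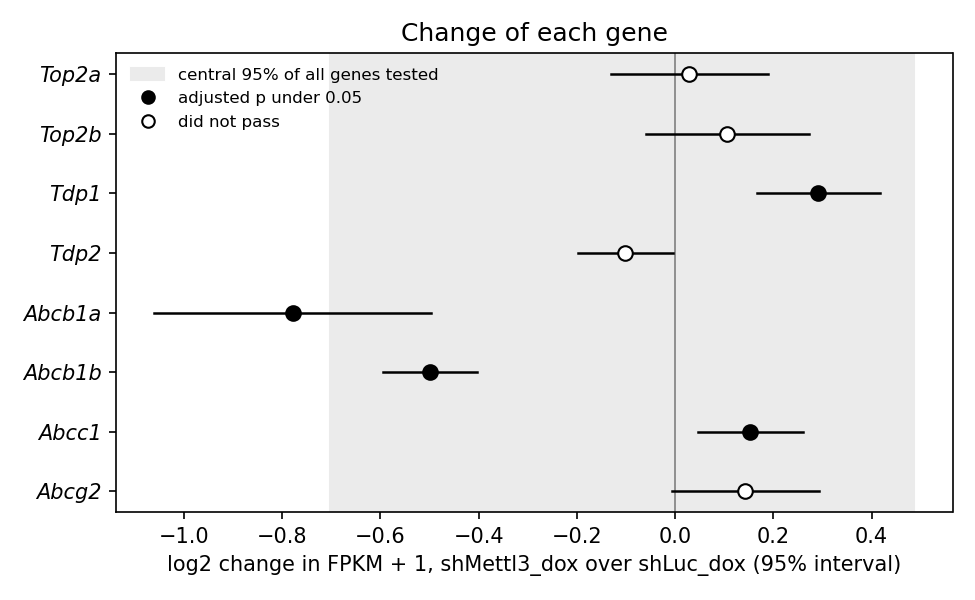
Log2 change in FPKM + 1, shMettl3_dox over shLuc_dox, with its 95% interval for each gene; filled points passed the test, and the grey band spans the central 95% of all 12098 genes tested (-0.70 to 0.49). Abcb1a at -0.78 lies outside the band and Abcb1b at -0.50 inside it; the interval of Top2a spans 0.

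The P-glycoprotein genes carried the largest changes among the 8. Abcb1a (ENSMUSG00000040584, chromosome 5, 8660077 to 8748575, plus strand) was at 0.666, 0.636 and 0.851 FPKM in shMettl3_dox and at 1.87, 1.75 and 2.23 FPKM in shLuc_dox. Each shMettl3_dox library was below 1 FPKM and each shLuc_dox library above 1, and replicate 3 was the highest of both groups. The mean fell by 63.2%, to 0.368 of that in shLuc_dox. On the log2(FPKM + 1) scale, which understates changes of low genes, the change was -0.78 (SE 0.119, limma adjusted p = 0.00431), and with a pseudocount of 0.1 it was -1.33. From the recovered reads, DESeq2 had a log2 change of -1.43 with a standard error of 0.217 (adjusted p = 1.18e-09), and the authors' deposited table lists -1.43. That table is not a separate source here, since the reads of genes listed in it were recovered from it and DESeq2 was among the authors' tools. The values rest on 61 to 94 reads per shMettl3_dox library and 186 to 206 reads per shLuc_dox library. A lower change than that of Abcb1a was found in 2.05% of all genes tested. Abcb1a averaged 0.718 FPKM in shMettl3_dox and met the filter of 1 FPKM only through shLuc_dox, so its place among the genes tested depends on that group. With all genes kept whatever their level, its limma adjusted p was 0.0147.

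Abcb1b (ENSMUSG00000028970, chromosome 5, 8798147 to 8866315, plus strand), the second most abundant of the 8 genes, was at 23.1, 22.2 and 23.5 FPKM in shMettl3_dox and at 32.1, 33.0 and 33.4 FPKM in shLuc_dox. The replicates of each group were within about the same narrow range, and the groups stood well apart. The mean fell by 30.1%, -0.50 on the log2 scale (SE 0.0406; limma adjusted p = 0.000436), on 3103 to 5305 reads per library. In the authors' deposited table the log2 fold change was -0.51 with an adjusted p of 1.78e-21. Abcb1a and Abcb1b were the only 2 of the 8 genes that the authors' deposited table listed as lower, where it lists 13.8% of all genes tested here.

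Added together, the P-glycoprotein genes reached 23.8, 22.8 and 24.4 FPKM in shMettl3_dox and 34.0, 34.8 and 35.6 FPKM in shLuc_dox. The summed level in shMettl3_dox was 0.681 of that in shLuc_dox. Abcb1b supplied 96.5% to 97.2% of the sum in shMettl3_dox and 93.7% to 94.96% in shLuc_dox, so the level of Abcb1a hardly entered it. The ratio of Abcb1a to Abcb1b was 0.0288, 0.0287 and 0.0362 in shMettl3_dox and 0.0581, 0.0530 and 0.0669 in shLuc_dox. The ratio was 0.525 times as high in shMettl3_dox, without overlap (exact permutation p = 0.1, the smallest possible here). The transcripts of the pair are alike: 16.3% of the 50-base stretches and 9.03% of the 100-base stretches of Abcb1a also occur in Abcb1b. The sources used here do not tell how reads fitting both were counted, so the split between them is uncertain. An antisense gene, Gm5106, overlaps the start of Abcb1b at 0.308 FPKM in shMettl3_dox and 0.513 FPKM in shLuc_dox, and 7330423F06Rik lies inside Abcb1b on its strand at 3.495 FPKM in shMettl3_dox and 4.58 FPKM in shLuc_dox. Whether counting used strand is likewise unknown, so reads of Gm5106 may be mixed with those of Abcb1b. For 7330423F06Rik, on the same strand, counting by strand would not separate the reads, and how they were assigned is unknown.

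**Figure D3:**
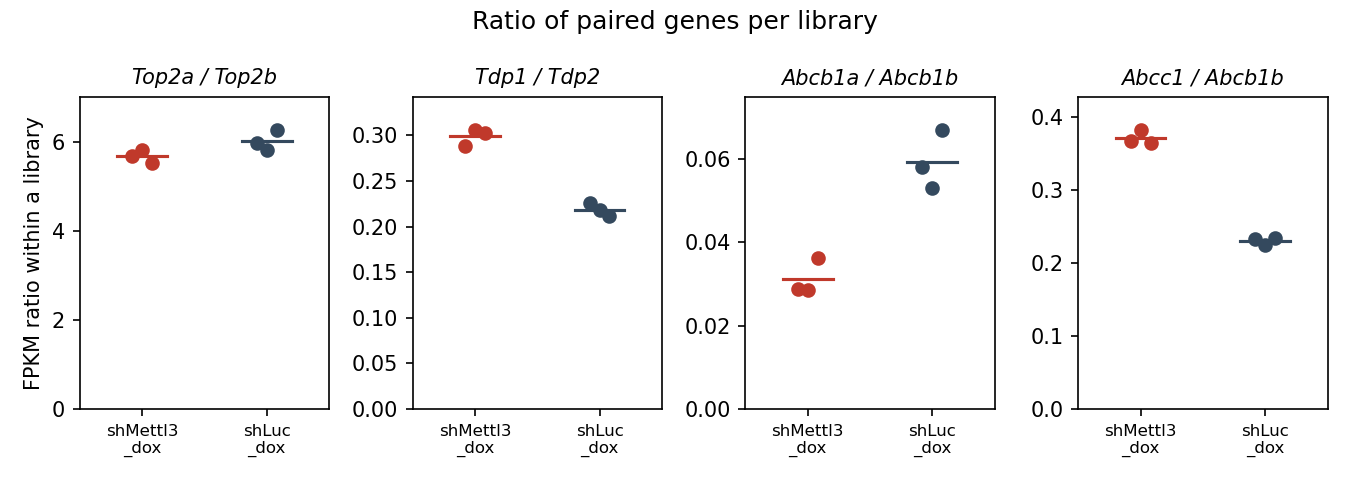
FPKM ratio of paired genes within each library, with 1 point per library, a bar at the group mean and axes starting at 0; shMettl3_dox is left of shLuc_dox. Abcc1 to Abcb1b (0.371 against 0.230) and Tdp1 to Tdp2 (0.299 against 0.218) are higher in shMettl3_dox, Abcb1a to Abcb1b is lower (0.0312 against 0.0593), and Top2a to Top2b nearly meets between groups.

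Abcb4, which encodes a phospholipid transporter of the same family and follows Abcb1b in the tandem (chromosome 5, 8893717 to 8959231, plus strand), is described here although it was under the expression filter, a choice made after its values were seen. It was at 0.334, 0.274 and 0.354 FPKM in shMettl3_dox and at 0.609, 0.784 and 0.804 FPKM in shLuc_dox. Every shMettl3_dox library was below every shLuc_dox library, on 45 to 148 reads. DESeq2 on recovered reads gave a log2 change of -1.18 (adjusted p = 3.93e-05). All 3 genes of the tandem were thus lower, and Abcb4 too is in the authors' deposited table, at -1.18, a value that rests on the same reads.

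Around the tandem the calls were mixed; these neighbours were named after their values were seen. Within 500000 bases of the stretch from Abcb1a to Abcb1b, 13 genes were tested, with Abcb1a and Abcb1b among them. Among the protein-coding neighbours, Rundc3b, which overlaps the RefSeq start of Abcb1a on the opposite strand, fell by 0.32 on the log2 scale (limma adjusted p = 0.0109). Slc25a40, a mitochondrial carrier gene, fell by 0.22 and Adam22 by 0.33. Dbf4, which encodes the activator of a replication kinase, rose by 0.54 (12.9 ± 1.02 FPKM in shMettl3_dox against 8.57 ± 0.463 FPKM in shLuc_dox). Crot, Tmem243, Dmtf1 and 9330182L06Rik, on the other side of the tandem, did not pass, with log2 changes of -0.21, 0.06, -0.12 and -0.17.

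**Figure D4:**
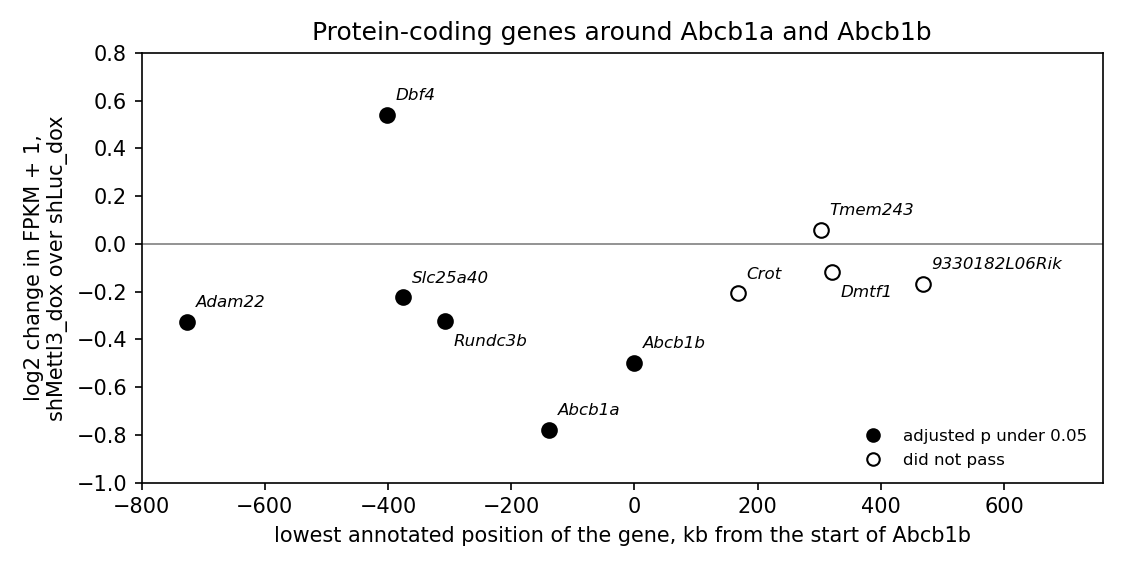
Log2 change in FPKM + 1 (shMettl3_dox over shLuc_dox) of the protein-coding genes tested around Abcb1a and Abcb1b, against the distance of each gene's lowest annotated position from the start of Abcb1b in kb; filled points passed the test. Abcb1a (-0.78) and Abcb1b (-0.50) are the lowest points, and Dbf4 (0.54) is the highest.

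Of the remaining exporters among the 8, Abcc1 rose and Abcg2 did not pass. Abcc1 (ENSMUSG00000023088, chromosome 16, 14361558 to 14475737, plus strand) was at 8.49, 8.47 and 8.55 FPKM in shMettl3_dox and at 7.46, 7.39 and 7.80 FPKM in shLuc_dox. The groups did not overlap, and the shMettl3_dox libraries were nearly equal. The log2 change was 0.15 (SE 0.0450, limma adjusted p = 0.0434), a mean 12.7% higher. This call was at the threshold: it was lost when any 1 of the 6 libraries was left out, with a limma adjusted p of 0.0646 to 0.134, and with protein-coding scaling (0.109). With the replicate number as a block the limma adjusted p was 0.0694. On recovered reads it held, with an adjusted p of 0.0109 by edgeR and 0.0126 by DESeq2.

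Abcg2 (ENSMUSG00000029802, chromosome 6, 58584523 to 58695676, plus strand) was at 7.81, 8.18 and 8.91 FPKM in shMettl3_dox and at 7.49, 7.01 and 7.75 FPKM in shLuc_dox. The lowest shMettl3_dox library was just above the highest shLuc_dox library. The log2 change of 0.14 had a 95% interval of -0.00606 to 0.29 (limma adjusted p = 0.138). The ratio of Abcc1 to Abcb1b within a library was 0.367, 0.382 and 0.363 in shMettl3_dox and 0.232, 0.224 and 0.234 in shLuc_dox. It was 1.61-fold higher in shMettl3_dox, without overlap (exact permutation p = 0.1, the smallest possible here).

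Of 21 other ABC transporter genes of the B, C and G families, 7 were tested, 2 fell and 5 did not pass, where 13.5% of all genes tested were lower. Abcc5, an exporter of nucleotides and conjugates, averaged 8.17 ± 0.454 FPKM in shMettl3_dox and 11.3 ± 0.241 FPKM in shLuc_dox (log2 change -0.43, limma adjusted p = 0.00198). Abcc10 averaged 2.39 ± 0.113 FPKM in shMettl3_dox and 3.47 ± 0.446 FPKM in shLuc_dox (log2 change -0.40, limma adjusted p = 0.0192). Only 1 of them was called without shMettl3_dox replicate 1, shLuc_dox replicate 1 or shLuc_dox replicate 2, where Abcc10 lost its call. Abcb8, a transporter of the mitochondrial inner membrane, had a log2 change of -0.22 (limma adjusted p = 0.123). The median over the 7 tested was -0.20, beside 0.01 over all genes tested. The remaining 14 had a mean under 1 FPKM.

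Of 12 genes linked to the uptake, reduction or vault sequestration of anthracyclines, 8 were tested, of which 4 rose and 4 did not pass, where 14.6% of all genes tested were higher. Mvp, the major vault protein, averaged 2.68 ± 0.155 FPKM in shMettl3_dox and 1.70 ± 0.0572 FPKM in shLuc_dox (log2 change 0.45, limma adjusted p = 0.00755). Por, the flavoprotein that passes electrons to cytochromes P450 and can reduce quinones, averaged 19.5 ± 1.40 FPKM in shMettl3_dox and 16.0 ± 0.320 FPKM in shLuc_dox (log2 change 0.27). Akr1b3, an aldose reductase, rose by 0.17 (limma adjusted p = 0.026), a call that held under 12 of the 18 alternatives. Cbr1, a carbonyl reductase that in humans turns doxorubicin into its alcohol, rose by 0.30 (limma adjusted p = 0.0467). The call of Cbr1 was near the threshold and held under 9 of the 18 alternatives. Cbr1 was named after its values were seen. Akr1b8 and Cbr3, further reductases, had log2 changes of -0.18 and -0.08 and did not pass. The count of higher genes was 1 without shLuc_dox replicate 1 or 2, and 2 without shLuc_dox replicate 3, without shMettl3_dox replicate 1 or 2, and with protein-coding scaling. With protein-coding scaling, array weights or the replicate block, or without shMettl3_dox replicate 3, 1 gene of the list was lower. The uptake carrier genes Slc22a16 and Slc28a3 were listed at 0 in every library. Slc22a4, another carrier gene of the list, was under the expression filter and is named after its values were seen. It averaged 0.322 FPKM in shMettl3_dox and 0.655 FPKM in shLuc_dox, on only 13 to 37 reads per library.

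Among 14 factors described as regulators of Abcb1 genes, 10 were tested, 5 fell, 1 rose and 4 did not pass, against 13.5% lower and 14.6% higher over all genes tested. Egr1, an immediate-early zinc finger factor, averaged 118 ± 4.23 FPKM in shMettl3_dox and 193 ± 0.344 FPKM in shLuc_dox (log2 change -0.71, limma adjusted p = 0.000127). The subunits of NF-Y, the factor that binds CCAAT, went different ways: Nfyb fell by 0.47 on the log2 scale, Nfyc rose by 0.32, and Nfya had a log2 change of 0.18 (limma adjusted p = 0.105). Foxo3 fell by 0.24, Trp53 by 0.19 and Foxo1 by 0.26 (limma adjusted p = 0.0140, 0.0167 and 0.0447). Trp53 and Foxo1 were named after their values were seen. The calls of Foxo3, Trp53 and Foxo1 held under 15, 14 and 9 of the 18 alternatives, and those of Egr1, Nfyb and Nfyc under all 18. The count of 5 was 2 without shMettl3_dox replicate 1 or shLuc_dox replicate 2, and 3 without shMettl3_dox replicate 2 or shLuc_dox replicate 1 or 3. The part of these genes in the change of Abcb1a and Abcb1b was not tested.

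**Figure D5:**
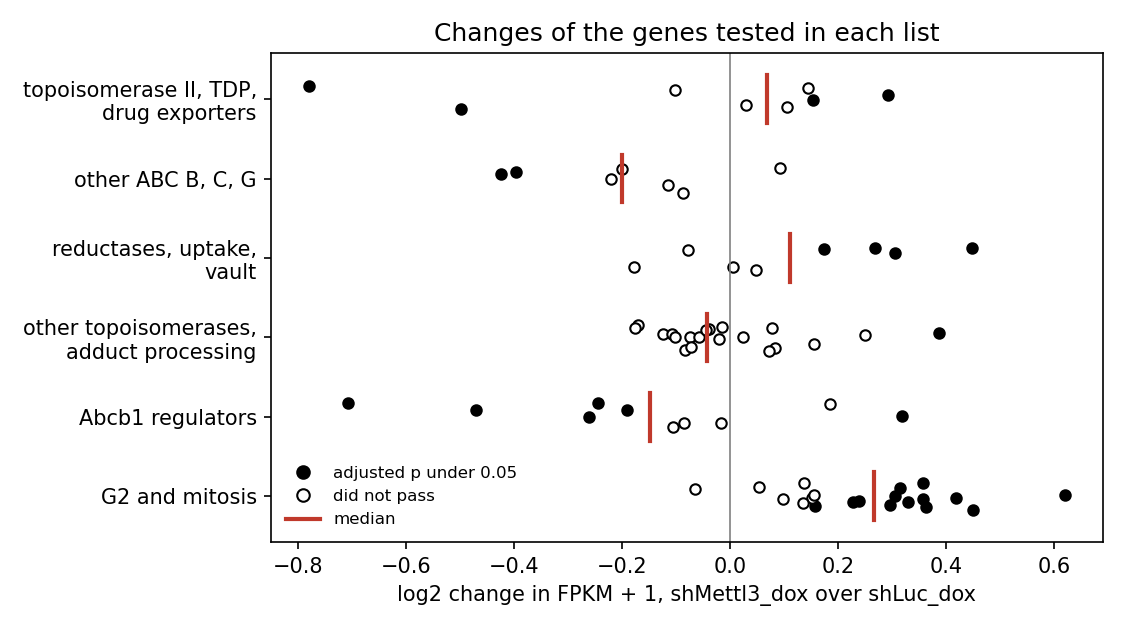
Log2 change in FPKM + 1, shMettl3_dox over shLuc_dox, of every tested gene of each list, with filled points for genes that passed the test and a red line at the list's median. The median of the other ABC genes is -0.20 and that of the G2 and mitosis genes is 0.27.

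The 5 letters GGACT, a form of the sequence in which N6-methyladenosine is most often written, were counted on the transcript strand in the longest protein-coding transcript of each gene in GENCODE M21. The density ran from 0.464 per kb in Abcb1b (2 matches) and 0.511 in Tdp2 (1 match) to 1.33 in Abcc1 (9 matches). Abcb1a had 5 matches, or 1 per kb, and Top2a, Top2b, Tdp1 and Abcg2 had 0.875 to 0.982 per kb. The median over 10653 tested genes was 1.04 per kb, and 92.5% of transcripts held a match. Of the genes that fell, Abcb1a was near this median and Abcb1b was low, with a lower density in only 15.9% of genes. The match is a description of letters, not of methylated sites.

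Genes with the most similar pattern over the 6 libraries were listed by Pearson's r of log2(FPKM + 1), which is a description because the libraries fall into the same 2 groups for every gene. For Abcb1a these were Gpc4 (r = 0.999), Tex15 (0.998) and Mybl1 (0.998). For Abcb1b they were Stx6 (0.999), Ptgs2 (0.999) and Lrp2 (0.999). Ptgs2, which encodes cyclooxygenase 2, averaged 5.28 FPKM in shMettl3_dox and 17.3 FPKM in shLuc_dox, a larger fall than that of Abcb1b despite the like shape. For Tdp1 the nearest were Epb41l2, Sharpin and Ipo4, all at 0.999. Such values were common: 1183 of 10650 protein-coding genes exceeded 0.9 with Abcb1a and 1325 with Abcb1b. For Top2a, whose variation lay within the groups, 115 genes did, led by Cfap97 (0.983), Zdhhc20 (0.981) and Dmac2 (0.978). For Top2b they were Atad1, Synrg and Mrps9 (255 genes over 0.9), for Tdp2 Cda, Impa1 and Lztr1 (431 genes), for Abcc1 Carmil1, Ccnd2 and Slc6a15 (1086 genes) and for Abcg2 they included Cd99l2 and Cdk8 (324 genes).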

How the data were processed

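RNA of 6 libraries was sequenced. Per the submitters' processing notes, the tools were fastp, STAR, featureCounts (1.5.3) and DESeq2, on mm10; their settings are not given there. The authors deposited FPKM per gene. The authors also deposited a table of 1960 genes they found lower, holding a normalized read count signal per library, a log2 fold change and a p-value. The number of columns belonging to other samples was 0.

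Genes were tested two-sided with limma 3.58.1 (R 4.3.3), with a trended eBayes prior, on log2(FPKM + 1) of the 12098 genes averaging 1 FPKM or more, with Benjamini-Hochberg adjustment over all of them and a threshold of 0.05. Whole reads, within 0.001 of a read, were recovered from 100% of the deposited normalized counts, and from 96.6% of genes above 0 by FPKM times GENCODE M21 exon length; the rest took another whole-number length. edgeR 4.0.16 and DESeq2 1.42.0 on these reads called 4499 and 3993 genes, against 3396 by limma. Gene positions follow GENCODE M21 on GRCm38, which mm10 names too; promoters follow RefSeq on GRCm38.p6. Python 3.11.15, numpy 2.4.6, pandas 2.3.3, scipy 1.17.1 and matplotlib 3.10.9 were used. The tests were first tested on simulated data, with 50 of 12098 genes changed at each fold. There limma recovered 12% of 1.2-fold changes, 64% of 1.5-fold changes and 88% of 2-fold changes. A gene that did not pass may thus hold a small change. Far fewer genes were changed there than passed here, so the shares need not hold for these data.

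The members and lists were chosen with earlier results of these data known. Named are the 8 genes, Mettl3, up to 3 genes of each list with the smallest p in each direction, the 3 most alike protein-coding genes of each of the 8, and the leading markers; others are marked in the text. A few genes that this rule names are not reported here. The alternatives varied the pseudocount, the filter, the scaling, the eBayes trend, array weights, the replicate block and the count test, and left out each library in turn.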

Additional observations from a re-analysis of the deposited data

How the results depend on the processing

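Directions and calls of Abcb1a (log2 change -1.43 to -0.68), Abcb1b (-0.54 to -0.48) and Tdp1 (0.26 to 0.36) were the same under all 18 alternatives, and Top2b, Tdp2 and Abcg2 missed the threshold under each. Top2a turned sign with protein-coding scaling (-0.0117) and ranged from -0.0222 to 0.0824 when 1 library was left out. Abcc1 lost its call when all genes were kept whatever their level (0.1533, limma adjusted p = 0.0640), with a minimum of 0.1 FPKM (0.1533, 0.0664), with protein-coding scaling (0.1166, 0.109), with quantile normalization (0.1464, 0.0546), with the replicate block (0.1533, 0.0694), and whichever library was left out (0.1397 to 0.1744); the cause was not tested. Leaving out 1 library gave 1057 to 1658 lower and 1021 to 1855 higher genes, against 1633 and 1763: 1057 lower without shLuc_dox replicate 2, and 1061, 1062, 1021 and 1149 higher without shMettl3_dox replicate 1 and shLuc_dox replicates 1, 2 and 3. With protein-coding scaling 1927 genes were lower and 1263 higher, so that 39.6% of calls were higher in place of 51.9%, and the median of all genes moved by -0.037. All 4 ratios moved by less than 1 SD under every alternative run for them. Same-numbered replicates had correlations of -0.00680 to 0.0631 between their deviations from the group means, so the numbers were not taken to pair the samples. With the replicate block 1525 genes were lower and 1676 higher, and not every library correlated best with its own number. Depth limits Abcb1a most, at 61 reads in its lowest library.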
